A study of Mus musculus with 16 samples.

Results

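The genes described here encode the light chains of muscle myosin and proteins that bind or modify myosin. They are the 6 light chain genes Myl1, Myl2, Myl3, Myl4, Myl6b and Mylpf, the 3 myosin-binding protein genes Mybpc1, Mybpc2 and Mybph, and the light chain kinase gene Mylk2. Members were taken by mouse symbol from a table of 48432 gene identifiers, and all 10 were found, each with an estimate in every library. Of these 10, 9 passed the filter on low counts and entered the test, which covered 13987 genes in all. Myl3 did not pass it.

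Samples were C2C12 myotubes, grown from C2C12, an established line of mouse myoblasts whose cells fuse into multinucleate fibres when serum is lowered. In the EPS group, cultures received electrical pulse stimulation, with pulses of 6 ms at 1 Hz, a field of 2.75 V/mm (duty cycle 0.6%) and the polarity reversed at 0.5 Hz. In the control group they were not stimulated. Cells of both groups were at passage 4 to 8, plated on gelatin and differentiated for 5 days in medium with horse serum. The labels do not state how long stimulation lasted. Each group had 4 libraries, every one listed as 2 lanes, and no label says that they came from separate cultures, so the p-values may reflect technical spread between libraries alone. One cell line without nerve, load or other tissue limits both groups as a model of muscle.

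Each myosin heavy chain carries an essential and a regulatory light chain on its neck, the lever that moves when the head pulls on actin. Fast, slow and developing fibres use different genes for these chains. In contraction, calcium and calmodulin switch on the skeletal light chain kinase, which phosphorylates the regulatory chain and raises the force of later twitches. Myosin-binding protein C lies in stripes along the thick filament and tunes how readily heads reach actin.

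The 7 deep libraries held 12.6 to 20.7 M fragments (M, 1000000) and control replicate 2 held 0.354 M, so values of that library rest on few fragments (6 for Mylk2 and 810 for Mylpf). A count of 3 fragments, the limit that a count of 0 allows, equals 8.68 counts per 1000000 (CPM) there and 0.146 to 0.239 CPM elsewhere, for counting error only. All 8 skeletal muscle markers were detected (Ckm, Myog, Acta1, Des, Tnnt3, Tnni2, Chrna1 and Cacna1s), with a summed level of 9186 to 15301 CPM in EPS libraries and 17425 to 20746 CPM in control libraries. By edgeR's test 0 of these 8 were called (5 by DESeq2, 6 at an unadjusted p under 0.05), and 4 were lower with the replicate block explained below. Of all 13987 tested genes, 0.758% were lower by edgeR, 2.1% by DESeq2 and 6.33% at an unadjusted p under 0.05. With the block 4.78% of all genes were lower and 7.31% higher by edgeR. Markers of dividing or undifferentiated myoblasts summed to 291 to 645 CPM in EPS and 373 to 788 CPM in control libraries, with 0 of 6 called by edgeR, blocked or not, by DESeq2 or at an unadjusted p under 0.05. Of 3 tested smooth muscle markers 1 fell, Acta2, an actin that developing muscle also makes, at 1058 CPM in EPS and 2284 CPM in control libraries on average (log2 fold change -1.11, adjusted p = 0.0328 by edgeR). With the block and by DESeq2, 2 of these 3 were lower. Their list summed to 727 to 1466 CPM in EPS and 2366 to 2572 CPM in control libraries. Cardiac markers summed to 43.9 to 143 CPM in EPS and 70.3 to 145 CPM in control libraries, fibroblast markers to 252 to 464 CPM in EPS and 319 to 667 CPM in control libraries (Tcf21 at 0 throughout), and adipocyte markers to 14.6 to 29.4 CPM in EPS and 2.84 to 16.5 CPM in control libraries. Of these last lists' 7 tested genes edgeR called 0 without the block (DESeq2 called 1, and 3 had an unadjusted p under 0.05). With the block, Pdgfra (log2 fold change 0.89, adjusted p = 0.0141) and Cebpa (0.93, adjusted p = 0.00480) were higher and Dcn (-0.64, adjusted p = 0.0219) and Myh6 (-0.49, adjusted p = 0.0492) lower by edgeR. In bulk RNA, fewer myotubes and less RNA per myotube cannot be told apart, and the part of these shifts in the results below was not tested. Across 13947 genes, the correlation of transcript length (log2) with a library's deviation from the mean was 0.17, 0.23, -0.30 and -0.25 in EPS replicates 1 to 4 and -0.033, 0.11, -0.21 and -0.20 in control replicates 1 to 4. The same correlation for GC content was 0.015, -0.18, 0.26 and 0.20 in EPS replicates 1 to 4. In control replicates 1 to 4 it was 0.22, -0.24, 0.24 and 0.23.

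Levels per length spanned a wide range. In fragments per kilobase of transcript and 1000000 fragments (FPKM, as the authors deposited them), Mylpf was the most abundant at 1387, 921, 2073 and 1974 FPKM in EPS replicates 1 to 4, against 2769, 2683, 2759 and 2429 FPKM in control replicates 1 to 4. Myl4 followed with a median of 754 FPKM in EPS and 1204 FPKM in control, then Myl1 with 532 FPKM in EPS and 913 FPKM in control, and Mybph with 334 FPKM in EPS and 585 FPKM in control. Myl6b had medians of 74.4 FPKM in EPS and 136 FPKM in control, and Myl2 of 52.7 FPKM in EPS and 106 FPKM in control. Mybpc2, Mybpc1 and Mylk2 were much lower, with EPS medians of 11.97, 12.3 and 6.48 FPKM and control medians of 22.1, 15.1 and 5.83 FPKM. Myl3, the essential chain of slow fibres and ventricle, stood at 0 to 0.543 FPKM in EPS and 0 to 1.02 FPKM in control libraries. Neighbours in this order whose ranges overlapped in both groups were Myl4 and Myl1, Myl6b and Myl2, and Mybpc2 and Mybpc1. Within each library, however, Myl4 was above Myl1 in all 8, by a ratio of 1.11 to 1.68 in EPS and 1.13 to 1.44 in control libraries. The order of Myl6b and Myl2, and that of Mybpc2 and Mybpc1, changed between libraries.

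**Figure D1:**
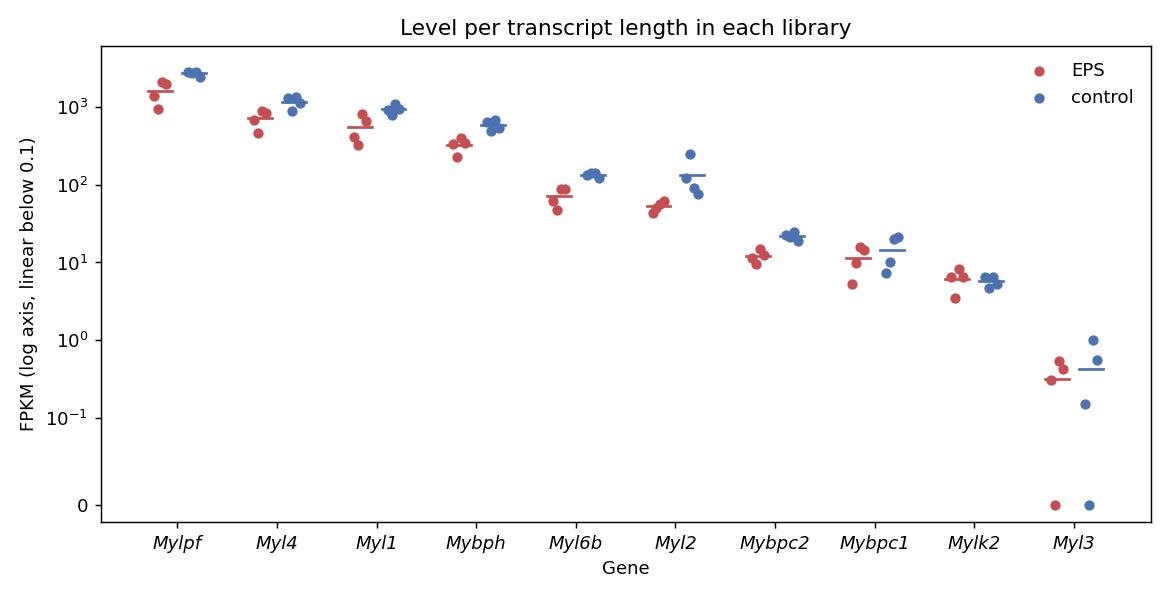
FPKM of each gene (log axis, linear below 0.1) in the 4 EPS libraries (red, left) and the 4 control libraries (blue, right), with a line at each mean. Mylpf leads in every library, and Myl3 is at 0 in 1 library of each group.

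Of the light chain, binding protein and kinase transcripts, Mybpc2 was the one that fell in EPS myotubes by the test over all genes without pairing. By edgeR's quasi-likelihood test with Benjamini-Hochberg adjustment, 1 of 9 tested members fell and 0 rose. Among all 13987 genes, 0.758% were lower and 2.3% higher by this rule. DESeq2 called 4 members lower (Myl2, Myl6b, Mybpc2 and Mybph; 2.1% of all genes lower). At an unadjusted p under 0.05 there were 6 members, all lower, against 6.33% of all genes lower by that rule. The fitted log2 fold change of EPS over control was negative in 8 of 9 members, with a median of -0.73 over the 9, against 0.01 over all tested genes, of which 49.1% were negative.

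Libraries with the same replicate number deviated together from their group means, with correlations of 0.21 to 0.30. Replicates 3 and 4 did so across numbers as well (0.25 and 0.23), and no label says that the numbers mark pairs. With the numbers taken as pairs, a second fit compared EPS and control libraries within replicate numbers. With this replicate block, 7 of 9 members were lower by edgeR (Mylpf, Myl2, Myl1, Myl4, Myl6b, Mybpc2 and Mybph) and 0 higher, while 4.78% of all genes were lower and 7.31% higher by the same rule. The median log2 fold change was then -0.81 over the 9, against 0.02 over all genes. Without pair 2, whose control library is shallow, the blocked fit called 8 members lower (8.23% of all genes). With length and GC offsets the blocked fit called 6 lower (5.08% of all genes), without Mylpf and Myl2 and with Mybpc1. In the blocked fit with offsets the median log2 fold change of all genes was -0.098, against 0.02 with the block alone. Of the 9, 8 were lower in EPS in each of the 4 pairs, which held for 15.7% of all tested genes. Groups did not overlap for 4 members (Mylpf, Myl2, Myl6b and Mybpc2), against 4.83% of all genes lower in that way. Leaving out control replicate 2 raised this to 7, with Myl1, Myl4 and Mybph added, against 11% of all genes.

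**Figure D2:**
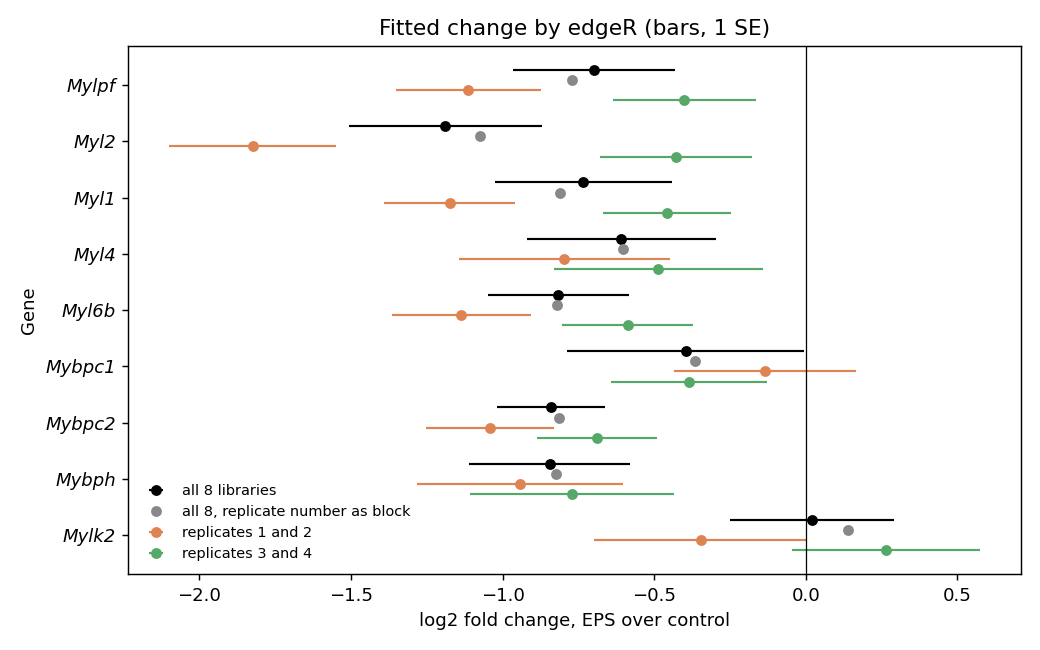
Fitted log2 fold change of EPS over control (edgeR) for the 9 tested genes, over all libraries (black), with the replicate block (grey, no bar), within replicates 1 and 2 (orange) and within replicates 3 and 4 (green), with bars of 1 SE. Estimates of the 8 genes other than Mylk2 lie below 0 in each fit, and those of Mylk2 on both sides of it.

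Gene positions below are those of GENCODE on mm10. Among the regulatory light chains, Mylpf (chr7:127208890-127214298, plus strand), the fast skeletal form, had 1421, 872, 1993 and 2088 CPM in EPS replicates 1 to 4, against 2658, 2298, 2671 and 2716 CPM in control replicates 1 to 4. Every EPS library was below every control library, and EPS replicates 1 and 2 were the lowest. The fitted log2 fold change was -0.70 (SE 0.27), which did not pass edgeR's test (adjusted p = 0.193), and with the replicate block it was -0.77 (adjusted p = 0.0221). Length and GC offsets with the replicate block gave -0.92 and ended the call (adjusted p = 0.0677, edgeR).

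Myl2 (chr5:122100951-122113472, plus strand), the regulatory chain of slow fibres and ventricle, had 44.9, 45.7, 52.2 and 65.0 CPM in EPS replicates 1 to 4, against 120, 230, 79.4 and 78.5 CPM in control replicates 1 to 4. The groups did not overlap, and the highest control value, in replicate 2, came from 81 fragments. Its log2 fold change was the most negative of the 9, at -1.19 (SE 0.32, adjusted p = 0.0754 by edgeR), and -1.08 with the replicate block (adjusted p = 0.0280). Without control replicate 2 it was -0.84 (adjusted p = 0.0661, edgeR). With length and GC offsets the blocked value was -1.22, no longer called (adjusted p = 0.0610, edgeR). The Myl2 gene overlaps Ccdc63 on the opposite strand, which averaged 0.103 CPM in EPS and 0 CPM in control libraries.

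Among the essential light chains, Myl4 (chr11:104550663-104595753, plus strand), the form of embryonic muscle and atrium, had 839, 490, 1052 and 1116 CPM in EPS replicates 1 to 4, against 1567, 709, 1493 and 1543 CPM in control replicates 1 to 4. The 3 deep control libraries were above all EPS libraries, and control replicate 2 lay within the EPS range. The log2 fold change was -0.61 (SE 0.31, adjusted p = 0.335 by edgeR), and -0.60 with the replicate block (adjusted p = 0.0185). Gm11661, Gm11663, Gm11665 and Gm22000 overlap Myl4 on the opposite strand. Gm22000, the highest of these, averaged 1.33 CPM in EPS and 1.18 CPM in control libraries.

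Myl1 (chr1:66924295-66945404, minus strand), which encodes a longer and a shorter fast essential chain, had 425, 298, 760 and 727 CPM in EPS replicates 1 to 4, against 902, 721, 1010.3 and 1033 CPM in control replicates 1 to 4. Only control replicate 2 lay within the EPS range. The log2 fold change was -0.73 (SE 0.29, adjusted p = 0.210 by edgeR), and -0.81 with the replicate block (adjusted p = 0.0129). Of the 1052 distinct 31-base words in its longest coding transcript, 28.4% also occur in Mylf-ps, so the assignment of some Myl1 fragments is uncertain.

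Myl6b (chr10:128494157-128498685, minus strand), an essential chain found in slow muscle and outside muscle, had 92.8, 63.4, 119.9 and 137 CPM in EPS replicates 1 to 4, against 189, 145, 185 and 201 CPM in control replicates 1 to 4. The groups did not overlap, with EPS replicate 4 just below control replicate 2. The log2 fold change was -0.82 (SE 0.23, adjusted p = 0.0917 by edgeR), and -0.82 with the replicate block (adjusted p = 0.00587). Myl3 had 7, 0, 11 and 11 fragments in EPS replicates 1 to 4, against 2, 0, 10 and 15 fragments in control replicates 1 to 4, too few for a comparison at this depth. Pth1r overlaps Myl3 on the opposite strand, at 1.13 CPM in EPS and 3.06 CPM in control libraries on average.

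The essential light chain pool was mostly Myl4 and Myl1 in both groups. Myl4 held 48.9% ± 4.47 (SD, n = 4) of the summed FPKM of Myl1, Myl3, Myl4, Myl6b and Myl6 in EPS libraries, and 49.2% ± 2.60 (SD, n = 4) in control libraries. Myl1 held 36.3% ± 3.80 (SD, n = 4) in EPS and 39.5% ± 2.22 (SD, n = 4) in control libraries. Myl6b held 4.84% ± 0.298 (SD, n = 4) in EPS and 5.83% ± 1.21 (SD, n = 4) in control libraries. Myl6, the chain of non-muscle and smooth muscle myosin, held 6.65%, 14.4%, 9.69% and 8.78% in EPS replicates 1 to 4, against 4.41%, 2.08%, 7.26% and 7.92% in control replicates 1 to 4. The ranges overlapped, but within each of the 4 pairs the share was higher in the EPS library. The size of this share depended on the measure. Its mean was 9.87% in EPS and 5.42% in control libraries in FPKM, and 4.38% and 2.35% in CPM per kilobase of transcript. The log2 fold change of Myl6 itself was -0.02 (adjusted p = 0.988 by edgeR). Among the regulatory chains of striated muscle, Mylpf held 96.5% ± 1.13 (SD, n = 4) in EPS and 95.3% ± 2.49 (SD, n = 4) in control libraries. These shares are descriptions and were not tested.

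**Figure D3:**
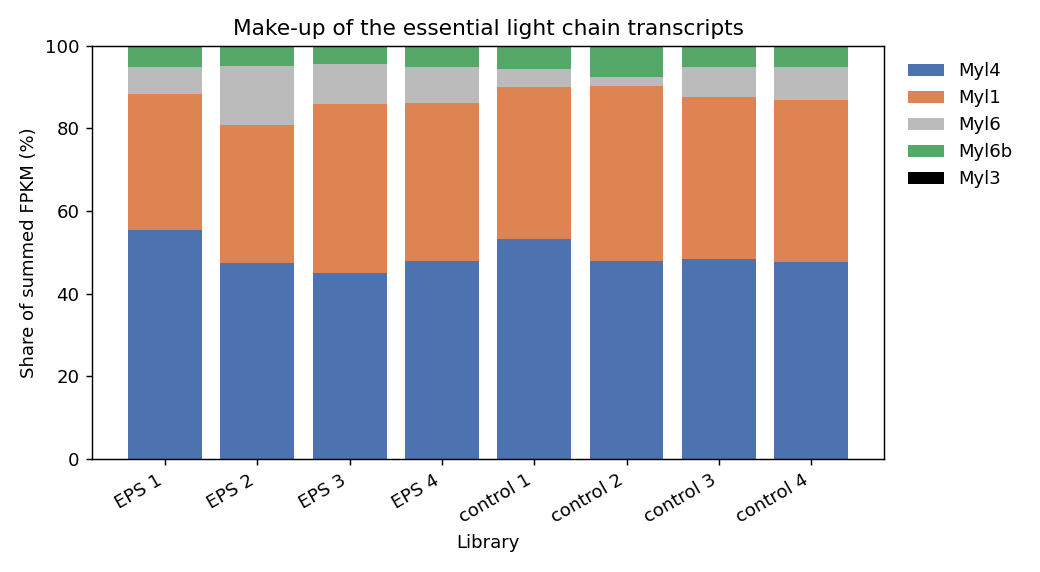
Share of summed FPKM (%) held by each essential light chain gene in the 4 EPS libraries (left) and the 4 control libraries (right). Myl4 and Myl1 make up most of every bar, and Myl3 is too small to see.

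Among the myosin-binding proteins, Mybpc2 (chr7:44501699-44524656, minus strand), the fast-fibre form of myosin-binding protein C, fell. It had 67.1, 50.1, 75.6 and 78.0 CPM in EPS replicates 1 to 4, against 133, 96.5, 127 and 120 CPM in control replicates 1 to 4. The groups did not overlap, and the 3 deep control libraries lay close together. The fitted fold was 0.559 (log2 fold change -0.84, SE 0.18, adjusted p = 0.0349 by edgeR), and with the replicate block the log2 fold change was -0.81 (adjusted p = 0.00322). The call ended without EPS replicate 1 and without control replicate 1, 3 or 4, with log2 fold changes of -0.83, -0.78, -0.83 and -0.86 and adjusted p by edgeR of 0.121, 0.128, 0.140 and 0.121, in that order. It also ended by limma on log2(FPKM + 1) and log2(FPKM + 0.1), with adjusted p of 0.0520 and 0.0585, and within replicates 3 and 4 (-0.69, adjusted p = 0.175 by edgeR). Gm44646 overlaps Mybpc2 on the opposite strand and averaged 0 CPM in EPS and in control libraries.

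Mybph (chr1:134193448-134201232, plus strand), a smaller relative of myosin-binding protein C, had 994, 597, 996 and 1037 CPM in EPS replicates 1 to 4, against 2061, 962, 1728 and 1741 CPM in control replicates 1 to 4. The 3 deep control libraries were above all EPS libraries, and control replicate 2, at 339 fragments, lay within the EPS range. The log2 fold change was -0.85 (SE 0.27, adjusted p = 0.123 by edgeR), and -0.82 with the replicate block (adjusted p = 0.00371). Without control replicate 2 the unblocked fit gave -1.03 (adjusted p = 0.0480, edgeR). Adora1 overlaps Mybph on the opposite strand and averaged 1.31 CPM in EPS and 2.69 CPM in control libraries. Of the distinct 31-base words of the longest coding Mybph transcript, 47.1% also occur in another gene, and all 1078 of these are shared with Adora1, whose level is given above beside a Mybph mean of 906 CPM in EPS and 1623 CPM in control libraries.

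Mybpc1 (chr10:88518279-88605152, minus strand), the slow-fibre form, had 31.8, 53.6, 85.3 and 92.2 CPM in EPS replicates 1 to 4, against 41.3, 65.3, 103.8 and 128 CPM in control replicates 1 to 4. Each EPS library was below the control library of the same number, but the spread within a group was larger than that difference, and replicates 1 were the lowest of both groups. The log2 fold change was -0.40 (SE 0.39, adjusted p = 0.638 by edgeR), and -0.36 with the replicate block (adjusted p = 0.0776). With the block and without pair 2 it was -0.39 (adjusted p = 0.0249, edgeR). With the block and length and GC offsets it was -0.56 (adjusted p = 0.0443, edgeR). Both passed the threshold. In the fit with offsets the median log2 fold change of all genes was -0.098. Among Mybpc1, Mybpc2, Mybpc3 and Mybph, Mybph held 93.1% ± 1.41 (SD, n = 4) of the summed FPKM in EPS and 94.0% ± 1.07 (SD, n = 4) in control libraries.

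Mylk2 (chr2:152911352-152923068, plus strand), the skeletal light chain kinase, had 32.8, 15.4, 37.0 and 32.7 CPM in EPS replicates 1 to 4, against 33.9, 17.02, 29.6 and 28.4 CPM in control replicates 1 to 4. The groups overlapped, and replicate 2 was the lowest of each. The log2 fold change was 0.02 (SE 0.27, adjusted p = 0.982 by edgeR), and 0.14 with the replicate block (adjusted p = 0.563). Set against its substrate, Mylk2 had 0.00472, 0.00379, 0.00395 and 0.00325 FPKM per FPKM of Mylpf in EPS replicates 1 to 4, against 0.00232, 0.00177, 0.00239 and 0.00215 in control replicates 1 to 4. Every EPS library was above every control library in this ratio, which was chosen after the values were seen and was not tested. The ratio is made of the lower Mylpf and near-level Mylk2 values already described, so it is not a separate result.

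Within pairs of the same replicate number, the EPS minus control difference in log2 CPM of Mylpf was -0.90, -1.40, -0.42 and -0.38 in pairs 1 to 4, and that of Myl1 was -1.08, -1.28, -0.41 and -0.51. For both genes pairs 1 and 2 were the more negative. Mybph had differences of -1.05, -0.69, -0.80 and -0.75, and Mybpc2 of -0.99, -0.94, -0.75 and -0.63, a narrower range than that of Mylpf. Fits with 1 pooled spread gave a median log2 fold change over the 9 members of -1.04 within replicates 1 and 2 and -0.46 within replicates 3 and 4. Neither these fits nor the test of their difference below paired libraries by number. Within replicates 1 and 2 the fit gave -0.35 for Mylk2, against -0.048 and -0.15 in pairs 1 and 2. For Mybpc1 it gave -0.13, against -0.38 and -0.28 in those pairs. Of the 9, 5 were lower by edgeR within replicates 1 and 2 (Mylpf, Myl2, Myl1, Myl6b and Mybpc2; 4.11% of all genes lower) and 0 within replicates 3 and 4 (0.293% of all genes lower), in fits where all 8 libraries set the spread. The difference between these sets did not pass for any member (adjusted p 0.383 to 0.919, edgeR), and passed for 0 of 13987 genes (1483 at an unadjusted p under 0.05; no other tool was run on it). The length trend given above also differed between replicates 1 and 2 and replicates 3 and 4, and the GC trend was negative only in replicate 2 of each group. The part of either trend in these values was not tested. The difference had its lowest unadjusted p, 0.00381, in Myl2 (edgeR). Its log2 fold change was -1.82 (SE 0.28) within replicates 1 and 2 and -0.43 (SE 0.25) within replicates 3 and 4. Replicates 1 and 2 include control replicate 2, the shallow library, where Myl2 had 81 fragments and pair 2 stood at -2.33. Without pair 2 the blocked Myl2 value was -0.77. A difference that misses the threshold does not show that the sets respond alike.

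**Figure D4:**
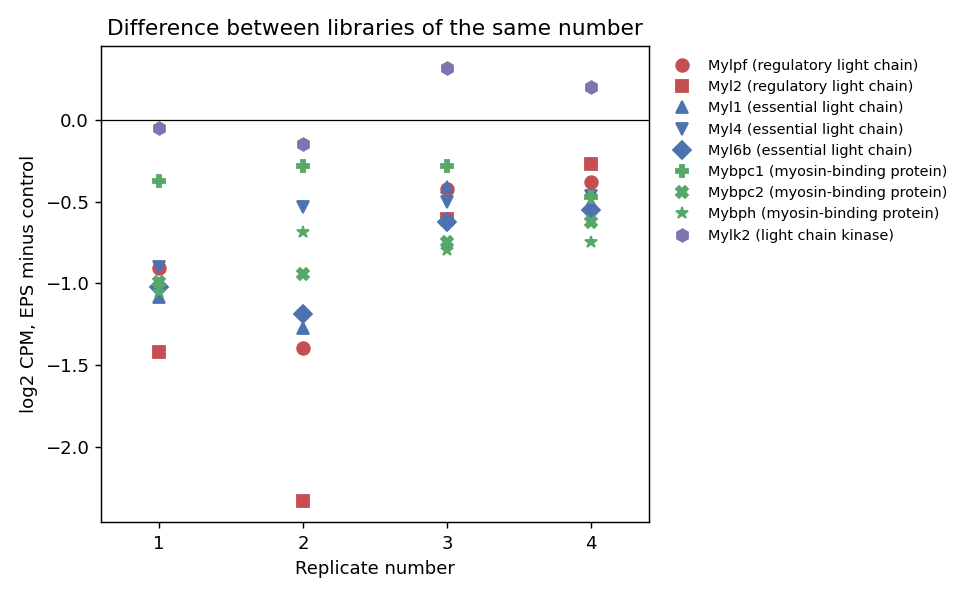
Log2 CPM of the EPS library minus that of the control library with the same replicate number, for the 9 tested genes, coloured by role. All points of the 8 genes other than Mylk2 lie below 0, and Myl2 in pair 2 is the lowest at -2.33.

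Partner genes were read from 6 lists of 44 genes, of which 4 had their estimate skipped by Cuffdiff in at least 1 group (Myl12a, Myl12b, Myom1 and Ttn) and 35 were tested. By edgeR 1 of these 35 was higher and 1 lower, and with the replicate block 3 were higher and 11 lower. Of all tested genes, 2.3% were higher and 0.758% lower without the block, and 7.31% higher and 4.78% lower with it. The counts of higher partner genes lie near these shares. The muscle myosin heavy chains, which the light chains bind, held most of the blocked decreases. Of 9 tested, 1 fell without the block, Myh7b, a slow-type heavy chain, at 10.96 CPM in EPS and 43.9 CPM in control libraries on average (log2 fold change -2.03, SE 0.31, adjusted p = 0.00778 by edgeR). Without the block DESeq2 called 4 of the 9, and 5 had an unadjusted p under 0.05 by edgeR (2.1% and 6.33% of all genes lower by these rules). With the block 7 of the 9 were lower by edgeR (4.78% of all genes, and 0.758% without the block). The list's median log2 fold change without the block was -0.70.

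Of 12 genes for light chain phosphorylation, 0 were called by edgeR without the block (0 by DESeq2, 1 at an unadjusted p under 0.05), with a median log2 fold change of -0.02. The one with the highest mean FPKM over both groups, the calmodulin gene Calm2, averaged 137 FPKM in EPS and 163 FPKM in control libraries (log2 fold change -0.33, adjusted p = 0.457 by edgeR). With the block, Ppp1r12a, the myosin phosphatase targeting subunit, was higher at 0.56 (adjusted p = 0.0319, edgeR), and Mylk4, a further kinase of the family, was lower at -1.18 (adjusted p = 0.0130, edgeR). Among the other light chains 0 of 2 tested were called (1 at an unadjusted p under 0.05, 1 by DESeq2), the most abundant being Myl6, and Myl9, the smooth muscle regulatory chain, was lower with the block at -0.99 (adjusted p = 0.00500, edgeR). Of 4 tested thick filament and M-band genes 0 were called (2 at an unadjusted p under 0.05, 2 by DESeq2). Myom2, an M-band protein and the most abundant of them, had -0.08 as its log2 fold change (adjusted p = 0.874 by edgeR), and with the block 2 were lower. Of 3 non-muscle and smooth muscle heavy chains 0 were called by edgeR, blocked or not, by DESeq2 or at an unadjusted p under 0.05, and the most abundant, Myh9, stood at a log2 fold change of 0.40 (adjusted p = 0.401 by edgeR).

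Of 5 myosin folding factors, 1 rose, Hsp90aa1, the inducible HSP90 that helps fold myosin heads. It averaged 1773 CPM in EPS and 393 CPM in control libraries (log2 fold change 2.197, adjusted p = 0.0454 by edgeR; 1.96 and adjusted p = 5.81e-04 with the replicate block). The call was lost without EPS replicate 1 or 2 or any 1 control library, where the log2 fold change was 1.59 to 2.53 (highest adjusted p 0.167, edgeR). By edgeR it was also lost with DESeq2 size factors (adjusted p = 0.0512), with length and GC offsets (0.0637) and within replicates 3 and 4 (0.115). Limma on log2(FPKM + 1) and log2(FPKM + 0.1) did not call it either, with adjusted p of 0.0823 and 0.0987. With the block, Hsp90ab1 was also higher, at 0.66 (adjusted p = 0.0164, edgeR). For Unc45b, the muscle co-chaperone of myosin, the log2 fold change was 0.47 (adjusted p = 0.468 by edgeR). In this list of 5, DESeq2 called 1, and 3 had an unadjusted p under 0.05 by edgeR, in either direction.

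Across the 7 deep libraries Pearson's r of log2 CPM between members ranged widely. It was 0.995 between Mylpf and Myl4, 0.989 between Mybpc2 and Mybph, 0.79 between Mylpf and Myl2, and 0.075 between Mybpc1 and Mylk2. With the same measure over these 7 libraries, the closest of 10817 other genes was Tnni1 for Mylpf (0.998), Dctn2 for Myl1 (0.999), Nrbp1 for Myl4 (0.999), Hes6 for Myl6b (0.996), Rtl8a for Myl2 (0.992), Rhobtb2 for Mybpc2 (0.998), Plcg1 for Mybph (0.996), Calm2 for Mybpc1 (0.995) and Tmem205 for Mylk2 (0.987). The number of genes with an r over 0.9 ranged between members, with 185 for Myl2, 221 for Mybpc1 and 223 for Mylk2 at the low end and 1216 for Mylpf and 1355 for Myl1 at the high end. They are descriptions of libraries that share group, replicate set and length trend.

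Promoters are shown for 5 members, Mybpc2 because it passed the test without pairing, and Mylpf, Myl4, Myl1 and Mybph because they are the 4 most abundant and were lower with the block. Each line gives the 250 bases before the RefSeq start (mm10, GRCm38.p6), 5′ to 3′ on the gene's strand, with capitals at each E-box (CANNTG, the motif bound by MyoD-family and many other factors).
Mybpc2, chr7:44524670-44524919, minus strand: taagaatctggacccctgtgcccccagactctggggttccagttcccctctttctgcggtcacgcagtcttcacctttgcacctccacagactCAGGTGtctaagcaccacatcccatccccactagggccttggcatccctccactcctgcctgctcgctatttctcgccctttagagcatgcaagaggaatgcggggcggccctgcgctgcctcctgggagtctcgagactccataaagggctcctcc
Mylpf, chr7:127211358-127211607, plus strand: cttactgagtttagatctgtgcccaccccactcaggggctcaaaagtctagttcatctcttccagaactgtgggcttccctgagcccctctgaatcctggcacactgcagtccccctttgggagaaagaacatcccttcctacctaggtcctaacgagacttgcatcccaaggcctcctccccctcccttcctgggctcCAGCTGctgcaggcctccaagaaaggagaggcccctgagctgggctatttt
Myl4, chr11:104550413-104550662, plus strand: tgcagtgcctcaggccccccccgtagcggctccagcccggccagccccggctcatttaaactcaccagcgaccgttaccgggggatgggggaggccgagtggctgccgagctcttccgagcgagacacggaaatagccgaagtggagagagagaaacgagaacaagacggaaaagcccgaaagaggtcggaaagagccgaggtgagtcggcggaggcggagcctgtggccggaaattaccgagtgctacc
Myl1, chr1:66945057-66945306, minus strand: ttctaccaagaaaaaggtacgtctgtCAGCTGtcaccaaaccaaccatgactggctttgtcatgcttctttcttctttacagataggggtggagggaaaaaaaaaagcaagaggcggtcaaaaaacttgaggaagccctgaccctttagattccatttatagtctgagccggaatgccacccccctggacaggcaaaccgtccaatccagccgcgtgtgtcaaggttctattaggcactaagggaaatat
Mybph, chr1:134193198-134193447, plus strand: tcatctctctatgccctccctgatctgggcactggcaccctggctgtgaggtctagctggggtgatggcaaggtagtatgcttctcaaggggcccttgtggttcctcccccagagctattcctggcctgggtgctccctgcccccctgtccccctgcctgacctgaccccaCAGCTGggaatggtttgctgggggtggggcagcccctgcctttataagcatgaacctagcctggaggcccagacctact
Of the 10 members, 9 had a window of this length, and 8 of the 9 held at least 1 E-box, searched on both strands, as did 66.2% of 32851 RefSeq promoter windows of this length. The first base of the E-box lay 157 bases before the start in Mybpc2, 51 in Mylpf, 79 in Mybph and 224 in Myl1. Myl4 had none in its window, so its line has no capitals. Windows depend on the RefSeq start, and which starts these cultures used was not tested. For Mylpf and Myl1 the windows lie inside the gene positions given above. The MEF2 motif, searched on both strands, was found in 0 of the members' 10 windows (Myl2 has 2), against 2.92% of all windows, and the CArG box in 1, that of Myl3, against 1.47%. These are matches of letters and not binding sites.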

How the data were processed

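RNA of C2C12 cells was sequenced after a stranded total RNA kit, per the labels' protocols. STAR 2.5.1, Cufflinks and Cuffdiff 2.2.1 on build mm10 were used, per the submitters' processing notes; neither the strand setting nor the annotation release is given there. Per the file headers, the deposited table holds estimated counts (unscaled fragments of each gene) and FPKM. Of the estimated counts above 0, 93.3% were whole, and all were rounded.

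Symbols and lengths came from GENCODE M21 (same build), with 48051 of 48432 identifiers matched, and promoters from RefSeq GRCm38.p6. The 46 genes skipped for too many fragments (HIDATA) entered neither library sizes nor tests. Genes were filtered (filterByExpr, minimum count 10, minimum total 15), scaled by TMM and tested with edgeR 4.0.16 (R 4.3.3; limma 3.58.1, DESeq2 1.42.0 as alternatives) on all 8 libraries, with an adjusted p threshold of 0.05. SEs derive from the F statistic. Library sizes for CPM were TMM-scaled, and log2 CPM had a prior count of 2. The test was first run on simulated counts. These had no replicate pairs or sets, so that run does not show how the test behaves with such structure.

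Groups and numbers came from sample titles. Deviations from group means over 13987 genes correlated at 0.30, 0.21, 0.29 and 0.30 between EPS and control libraries numbered 1 to 4. The numbers were therefore taken as pairs, though no label says what they mark. EPS replicate 3 with control replicate 4 gave 0.25, and EPS replicate 4 with control replicate 3 gave 0.23. Within replicates 3 and 4 the correlations thus hardly tell same-number pairs from crossed ones. The members and lists were chosen with earlier results of these data known. All members are described, with called partner genes or the most abundant one per list; Unc45b, Hsp90ab1, Myl9, Mylk4 and Ppp1r12a were added after values were seen.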

Additional observations from a re-analysis of the deposited data

Results flagged for a closer look

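Of 20 groups of 4 libraries (10 genes in 2 groups), 3 held a library whose CPM lay far from the other 3, measured by its gap to the nearest of them over the group's range (Dixon's test). With normal values chance flags about 1 in 20 groups. The genes share the same libraries, so the flags are not independent, and their number was not tested against that rate. Mybph in EPS replicate 2 was the lowest of its group at 597 CPM (0.9005 of the range). Mylpf and Myl4 in control replicate 2, the shallow library, were the lowest of theirs at 2298 CPM (0.861) and 709 CPM (0.913).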

How the results depend on the processing

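Fitted log2 fold changes of Mylpf, Myl2, Myl1, Myl4, Myl6b, Mybpc1, Mybpc2 and Mybph were negative under every alternative run. That of Mylk2 (0.02) was -0.019 without the low-count filter and -0.081 with length and GC offsets. It was -0.35 within replicates 1 and 2, in a fit not paired by number. With 1 library left out it was -0.12 to 0.20. Members lower numbered 1, against 4 by DESeq2, 2 without the filter, 0 by limma on log2(FPKM + 1) or log2(FPKM + 0.1), 7 with the replicate block, 8 with the replicate block without pair 2, 2 with the offsets, 6 with the offsets and the block, 5 within replicates 1 and 2, 0 within replicates 3 and 4, and 0 to 2 with 1 library left out. For all genes lower (106) these settings gave 294, 162, 48 and 29, 668, 1167, 226, 710, 575, 41 and 22 to 167. For all genes higher (322), DESeq2 gave 633, limma 130 and 94, the block 1023, the block without pair 2 1290, the offsets and the block 625, replicates 1 and 2 1191, replicates 3 and 4 153, and leaving out 1 library 92 to 427. Partner genes higher numbered 1, against 0 with DESeq2 size factors, by limma at both pseudocounts, with the offsets and within replicates 3 and 4, against 3 with the block, with or without pair 2, and within replicates 1 and 2, and 0 to 1 with 1 library left out. Partner genes lower numbered 1, against 7 by DESeq2, 2 without the filter and by limma at both pseudocounts, 11 with the block, 12 without pair 2, 4 with the offsets, 12 with the offsets and the block, 4 within replicates 1 and 2, and 1 to 3 with 1 library left out. In CPM per kilobase, the share of Myl4 was 58.0% in EPS and 55.5% in control libraries, and that of Mybph 91.5% in EPS and 92.4% in control libraries. The median log2 fold change of all genes was 0.15 without the filter, -0.12 with the offsets and -0.098 with the offsets and the block. The causes were not tested. Control replicate 2, at 0.354 M fragments, limits every low gene.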
